A study of Mus musculus with 2 samples.

Results

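Embryonic stem (ES) cells are often grown on a layer of mouse embryonic fibroblasts (MEF), and single-cell libraries of such cultures can hold some of those feeder cells. The fibroblast barcodes of 2 droplet libraries of mouse ES cell cultures were picked out here by the share of their transcripts that came from 3 fibrillar collagen genes, *Col1a1*, *Col1a2* and *Col3a1*. A barcode counted as a feeder fibroblast when it had at least 500 unique molecular identifiers (UMIs, each counting 1 captured transcript), at most 20% of UMIs on mitochondrial genes, at least 5 collagen UMIs and at least 0.3% of its UMIs on the 3 collagens. This rule took 66 of 3478 barcodes. They were 44 of 1856 barcodes, or 2.37% (95% exact binomial interval 1.73 to 3.17), in the wild-type library and 22 of 1622, or 1.36% (0.852 to 2.05), in the *Lin28a* knockout library. The share in the knockout library over that in the wild-type library was 0.572 (0.327 to 0.975). All other barcodes within the same limits of depth and mitochondrial share, 1812 and 1600, served as the reference.

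The ES cells, labelled as derived from the inner cell mass, were wild-type cells, which the labels call untreated and the study's text a transfected clone, or carried a *Lin28a* knockout. Both were kept for 2 days on gelatin and MEF feeders in medium with LIF and 2 inhibitors (2i). The knockout was made with Cas9 and a guide to the second exon, and both the wild-type and the knockout line were single picked clones. The labels give the feeder cells no genotype, strain, sex or batch, and how they were arrested is not given in the sources used here. There was 1 library per group, so no difference between the libraries was tested, cells of 1 library were not taken as replicates, and all intervals cover counting error only.

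Fibroblasts build the extracellular matrix. They secrete type I and type III collagen, which cross-linking enzymes join into fibrils, along with glycoproteins that bind the fibrils, and proteases and protease inhibitors that remodel them. In ES cell culture, feeders are used after their division has been stopped, for the surface and the factors they supply, among them the cytokine LIF, which sustains self-renewal. Fibroblasts also answer injury and inflammatory signals by releasing chemokines that draw leukocytes, largely through the transcription factor NF-kB.

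*Lin28a*, the gene knocked out in the ES cells, had 3 and 2 UMIs in the wild-type and knockout feeder barcodes, or 6.99 (1.44 to 20.4) and 17.5 (2.11 to 63.1) CPM (counts per 1000000 UMIs). In the other barcodes it stood at 111 (104 to 117) CPM among wild-type and 36.9 (33.0 to 41.0) CPM among knockout barcodes. The guide cuts near the start of the transcript and the counts come from its end, so these levels say nothing of the protein. Its paralog *Lin28b* had 0 UMIs in the feeder barcodes of both libraries.

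The wild-type feeder barcodes were deep and the knockout ones were split between deep and shallow. Median UMIs were 9183 and 2803.5 in the feeder barcodes, against 6105.5 and 5070.5 in the other barcodes. The feeder barcodes held 3.69% of all UMIs of the wild-type library and 1.23% of those of the knockout library. At least 5000 UMIs were reached by 38 of 44 feeder barcodes in wild-type and 9 of 22 in knockout. Among barcodes of that depth alone, the share of feeders came to 3.08% (wild-type) and 1.10% (knockout), with a ratio of 0.356 (0.151 to 0.749). The ratio at a minimum of 200 UMIs was 0.729 (0.455 to 1.15), so the size of the gap in share moved with the depth of the barcodes counted.

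The collagen share, which chose the barcodes, ran from 0.333% to 5.67% with a median of 1.76% in the wild-type and from 0.481% to 4.80% with a median of 1.71% in the knockout feeder barcodes. In the other barcodes, 1594 of 1812 (88.0%) and 1426 of 1600 (89.1%) had no collagen UMI at all. Near the limit, the lowest wild-type members held 34 of 10205, 26 of 7134 and 22 of 4966 UMIs on the collagens, and the highest wild-type barcode outside with at least 5 such UMIs held 5 of 7289, or 0.0686%. The lowest knockout members held 28 of 5824, 20 of 3312 and 7 of 997. Among knockout barcodes with at least 5 collagen UMIs, the nearest outside held 45 of 18430 (0.244%) and 7 of 2946 (0.238%). In addition, 4 wild-type barcodes and 1 knockout barcode were past 0.3% on fewer than 5 collagen UMIs. The deep knockout barcode just under the limit carried 22 of the 25 *Ccl2* UMIs and 13 of the 21 *Ccl7* UMIs of all 1600 other knockout barcodes, 10 *Timp3* UMIs, and 1 *Pou5f1* UMI.

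**Figure D1:**
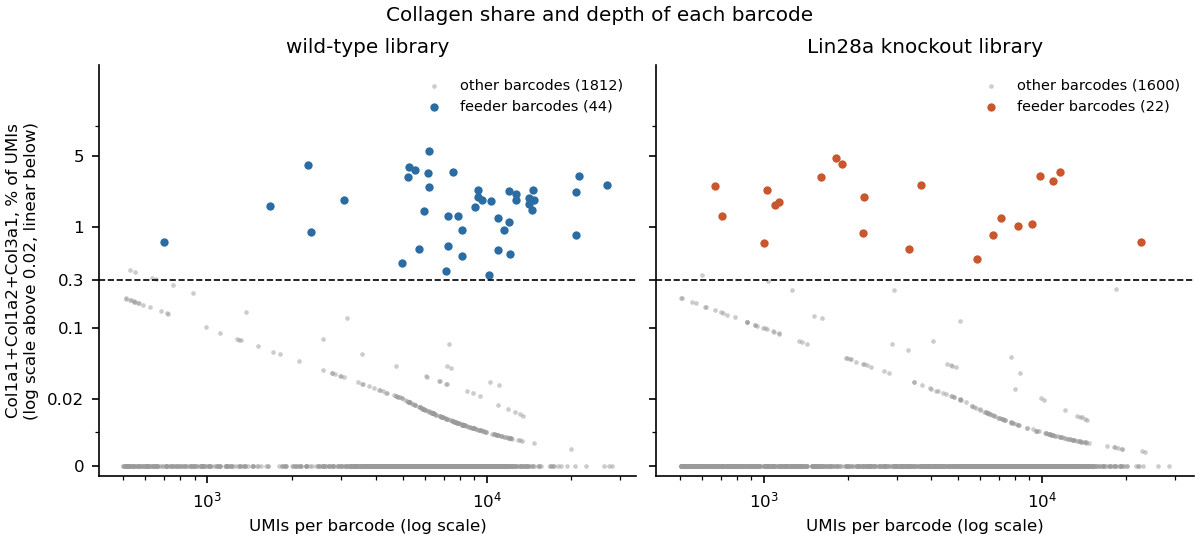
Each point is a barcode, with its UMIs on the horizontal axis (log scale) and the percentage of UMIs on Col1a1, Col1a2 and Col3a1 on the vertical axis (log scale above 0.02, linear below), in the wild-type (left) and knockout (right) library. The 44 and 22 coloured feeder barcodes lie above the dashed limit of 0.3%, and grey points above it have under 5 collagen UMIs.

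The given markers that the rule did not use were looked at next. They were named together with the rule, with earlier results of these data known. Their levels therefore describe the members and cannot check the label. *Timp3*, an inhibitor of matrix metalloproteinases, was detected in 41 of the 44 wild-type feeder barcodes and 16 of the 22 knockout ones. Its level was 3215 (3047 to 3389) CPM in wild-type and 1004 (829 to 1205) CPM in knockout feeder barcodes, against 5.53 and 4.66 CPM in the other barcodes. *Ccl2*, a chemokine that draws monocytes, was found in 26 and 7 feeder barcodes, at 468 (406 to 538) and 445 (332 to 586) CPM. In the other barcodes *Ccl2* stood at 0.268 and 2.71 CPM. *Cxcl5*, a chemokine that draws neutrophils, was found in 10 and 5 feeder barcodes, at 133 (101 to 172) and 244 (162 to 353) CPM, and had 2 and 0 UMIs in all other barcodes. All 3 markers were thus far higher in the feeder barcodes of both libraries, and *Timp3* was the only one of them seen in most members of both libraries. In the GRCm38 assembly, *Col1a1* lies on chromosome 11 at 94936224 to 94953042, *Timp3* on chromosome 10 at 86300372 to 86349506, *Ccl2* on chromosome 11 at 82035571 to 82037453, and *Cxcl5* on chromosome 5 at 90759360 to 90761624. *Timp3* overlaps *Syn3* on the opposite strand, and whether the counting used strand is not given in the sources used here.

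**Figure D2:**
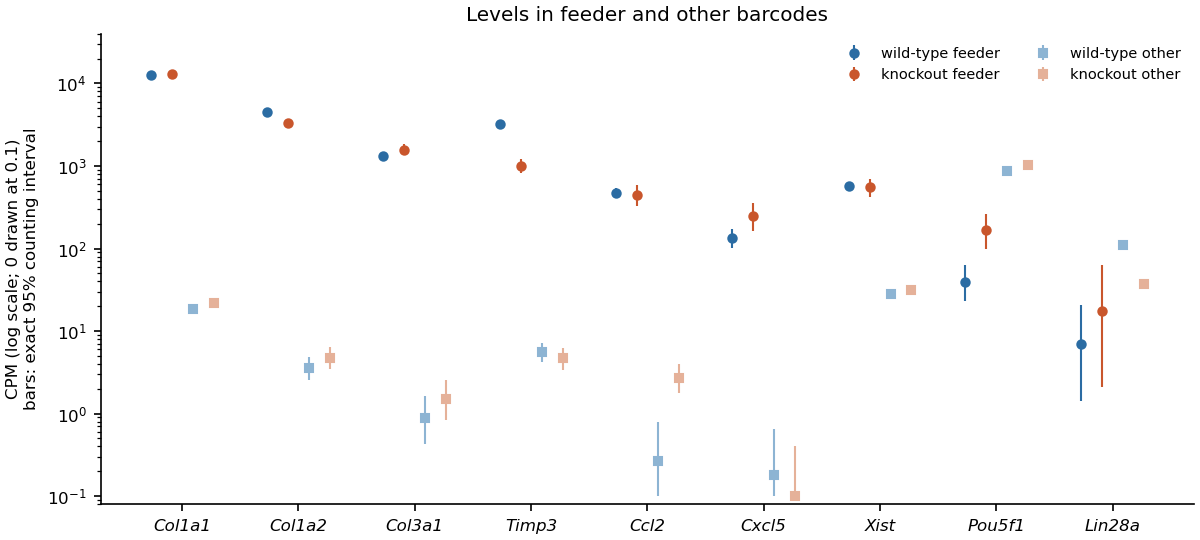
Levels in CPM (log scale, 0 drawn at 0.1) of the rule collagens, the 3 markers outside the rule, Xist, Pou5f1 and Lin28a in the feeder (circles) and other (squares) barcodes of each library, with exact 95% counting intervals. The 6 feeder markers and Xist lie higher in the feeder barcodes of both libraries, and Pou5f1 lies lower. Lin28a lies lower in the wild-type library, and in the knockout library its feeder interval takes in the level of the other barcodes.

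The level of *Timp3* in the other barcodes was 0.172% of its feeder level in wild-type and 0.464% in knockout barcodes, and 2.20% and 2.51% in barcodes under 500 UMIs. That of *Sparc*, which other cell types also express, was 3.21% and 3.73% and that of *Fn1* 29.9% and 54.1% in the other barcodes. A *Timp3* UMI was found in 59 of 1812 (3.26%) and 31 of 1600 (1.94%) other barcodes, against 93.2% and 72.7% of the feeder barcodes. When every barcode was thinned to 500 UMIs, these shares were 0.660% and 0.337% in the other and 54.0% and 31.2% in the feeder barcodes.

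Over all genes, 1623 had a mean of the feeder and other levels of at least 100 CPM in both libraries. Of these, 172 (10.6%) were 4-fold or more higher in the feeder barcodes in both libraries, and 89 (5.48%) were 4-fold or more lower. These counts describe cells chosen on 3 of the genes. A gene at 40 CPM or less in the other barcodes of a library could reach the mean of 100 CPM only by being 4-fold higher in the feeders, and a gene at 40 CPM or less in the feeders only by being 4-fold higher in the others. Of the 172 higher genes, 119 had their call fixed in this way in at least 1 library, and of the 1504 genes open in both libraries 53 (3.52%) were higher. Of the 89 lower genes, 58 were fixed in at least 1 library, and of the 1530 genes open in both 31 (2.03%) were lower. List counts below are given for genes whose call was open in both libraries, and are to be read beside these shares. The median log2 ratio of feeder over other over all 1623 genes was -0.42 among wild-type and -0.24 among knockout barcodes. The 20 genes with the largest ratio, by the smaller of its values in both libraries, were led by the rule collagens and then by *Lox* and *Fbln2*. All 20 passed the filter only by being high in the feeders, so their calls were fixed and their ranking is a description. They held 3 further collagens (*Col8a1*, *Col6a1* and *Col6a2*), *Thbs1*, *Aebp1*, *Ccdc80*, *Timp2*, *Timp3*, *Serpina3n*, *Cd248*, *Cyp1b1*, *Rcn3*, and 3 genes of 1 imprinted region, *H19*, *Igf2* and *Gm49394*. The last of these overlaps *Igf2* on the same strand and may share its reads. The place of *Lox* leans on 1 knockout barcode, without which it was 101 (42.9 to 235)-fold above the other knockout barcodes.

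Collagen transcripts were abundant, and *Col1a1* and *Sparc* were among the 5 genes with the highest feeder level, beside *Malat1*, *Gm42418* and the elongation factor gene *Eef1a1*. *Col1a1*, the alpha 1 chain of type I collagen, stood at 12543 (12209.9 to 12882) CPM in wild-type and 12949 (12298 to 13626) CPM in knockout feeder barcodes. *Col1a2*, its partner chain, stood at 4485 (4286 to 4689) and 3309 (2985 to 3659.9) CPM, and *Col3a1*, the type III chain, at 1319 (1212 to 1432) and 1580.5 (1359 to 1828) CPM. All 3 were used by the rule, and their ratio to the other barcodes is not a finding. Collagens outside the rule followed them. The type V chains *Col5a1* and *Col5a2*, which join type I fibrils, stood at 811 and 496 CPM in wild-type and 498 and 262 CPM in knockout feeder barcodes, against at most 4.34 CPM in other barcodes. The type VI chains *Col6a1* and *Col6a2*, which form beaded filaments, stood at 279.6 and 228 CPM in wild-type and at 533 and 332 CPM in knockout feeder barcodes. *Col2a1*, the cartilage collagen, had 2 UMIs in wild-type and 1 in knockout feeder barcodes. The call of all 5 collagens outside the rule that passed the filter was fixed by it, so their count is no result. Of 18 such collagens listed, 15 had at least 1 UMI in the feeder barcodes.

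The promoter of *Col1a2* is shown because its transcript is a rule gene found in 43 of 44 and 22 of 22 members. The 250 bases before the RefSeq start are at chr6:4505368-4505617 of GRCm38.p6, plus strand. Capitals mark the letters CCAAT, searched on both strands and held by 33.8% of 32851 RefSeq promoter windows of this length.
*Col1a2*: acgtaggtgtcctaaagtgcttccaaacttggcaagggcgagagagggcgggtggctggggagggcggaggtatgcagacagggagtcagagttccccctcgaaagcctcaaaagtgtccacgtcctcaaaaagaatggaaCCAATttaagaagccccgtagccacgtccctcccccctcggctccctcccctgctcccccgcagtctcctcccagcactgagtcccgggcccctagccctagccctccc
The letters lie 109 to 105 bases before the start. Windows were in the table for 4 of 8 genes looked up (the 6 markers, *Ccl7* and *Cxcl1*), namely *Col1a2*, *Col3a1*, *Timp3* and *Cxcl1*, and among these CCAAT was found only in that of *Col1a2*.

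Genes that fold, modify and cross-link collagen were also looked at. *Serpinh1*, the collagen chaperone HSP47, stood at 2001 (1869.5 to 2139.6) and 1388 (1181 to 1622) CPM in the wild-type and knockout feeder barcodes, 21.3-fold and 22.3-fold above the other barcodes. *Lox*, the lysyl oxidase that starts cross-links, stood at 820 (737 to 910.3) and 585 (453 to 743) CPM. It was spread over 41 of the 44 wild-type barcodes, and in the knockout library 7 of 22 barcodes had it and 1 of them held 80.6% of its UMIs. *Loxl2* stood at 771 and 367 CPM and *P4ha1*, a prolyl hydroxylase subunit, at 279.6 and 175 CPM. Of 2 genes of this list whose call was open, *Serpinh1* was 4-fold or more higher, and *Crtap* was 3.23-fold and 2.82-fold higher.

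Matrix glycoproteins and proteoglycans summed to 17342 and 14372 CPM in the feeder barcodes, close to the summed rule collagens (18346 and 17839 CPM). *Sparc*, which binds collagen, made up 8170 (7902 to 8445) and 7309 (6822 to 7821) CPM of it and was 31.2-fold and 26.8-fold higher than in the other barcodes. Of 2 members whose call was open, *Sparc* was 4-fold or more higher in both libraries. The other was *Fn1*, fibronectin, at 1302 and 699 CPM in the feeder barcodes against 389 and 378 CPM in the others. *Fbln2*, a fibulin of elastic fibres, was found in 43 and 20 feeder barcodes at 2132 and 2026 CPM. The leucine-rich proteoglycan *Bgn* stood at 1044 and 1057 CPM and the large proteoglycan *Vcan* at 494 and 341 CPM. *Thbs1*, thrombospondin 1, was found in 38 of 44 wild-type barcodes but in 7 of 22 knockout barcodes, where 1 held 72.1% of its UMIs.

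Proteases and their inhibitors remodel the matrix. *Timp2* stood at 3893 (3708 to 4084) CPM in wild-type and 1825 (1586 to 2089.8) CPM in knockout feeder barcodes, and *Timp1* at 573 and 689.8 CPM. The membrane protease *Mmp14* stood at 536 and 271 CPM. Of 3 members whose call was open, *Ctsb*, a lysosomal protease, was 4-fold or more higher in both libraries.

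Chemokine transcripts were high, and unevenly spread over the members. The list summed to 2066 (1933 to 2207) CPM in wild-type and 2008 (1757 to 2285) CPM in knockout feeder barcodes, against 20.8 and 35.7 CPM in the others. Of 28 genes, 20 had a UMI in the feeder barcodes and 3 passed the filter (*Ccl2*, *Ccl7* and *Csf1*), by being high in the feeders. *Csf1*, the macrophage growth factor, stood at 464 and 279 CPM and *Ccl7*, a neighbour of *Ccl2* that draws the same cells, at 366 and 341 CPM. *Cxcl1*, a neutrophil chemokine, stood at 133 (101 to 172) and 227 (148 to 333) CPM. The UMIs of the list were uneven over the members: the 5 richest barcodes held 41.4% of them in the wild-type library, where these 5 held 18.4% of all feeder UMIs, and 85.7% in the knockout library, where they held 54.3%. For *Cxcl5* alone, the 5 richest held 87.7% and 100% of its UMIs. The list was at 0 in 4 of 44 wild-type and 7 of 22 knockout members.

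*Cxcl1* is shown as the 1 of 4 chemokine genes looked up that had a window in the table. The 250 bases before its RefSeq start are at chr5:90890995-90891244 of GRCm38.p6, plus strand. Capitals mark matches on either strand to the NF-kB motif GGGA, any 2 bases, then TTCC, which 1.21% of the 32851 windows hold.
*Cxcl1*: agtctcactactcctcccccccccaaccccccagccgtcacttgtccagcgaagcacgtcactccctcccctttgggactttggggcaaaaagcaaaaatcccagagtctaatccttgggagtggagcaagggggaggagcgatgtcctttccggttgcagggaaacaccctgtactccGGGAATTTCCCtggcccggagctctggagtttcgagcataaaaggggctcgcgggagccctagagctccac
The 2 matches, 1 on each strand, overlap and lie 71 to 61 bases before the start.

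The NF-kB list summed to 1798 (1674 to 1929.9) and 2209 (1945 to 2499) CPM in the feeder barcodes and 537 and 585 CPM in the others. Of 3 members whose call was open, 2 were 4-fold or more higher, *Nfkbia*, the inhibitor that NF-kB itself induces, at 405 and 629 CPM, and *Nfkb1*, a subunit, at 217 and 524 CPM. *Ptgs2*, the inducible cyclooxygenase, stood at 249 and 262 CPM. *Sod2* was 0.467-fold and 0.664-fold of its level in the other barcodes. Across members with at least 2000 UMIs, the share of UMIs on chemokines ran with that on NF-kB genes at a Spearman rho of 0.38 (n = 42 wild-type barcodes) and 0.66 (n = 13 knockout barcodes). The same shares ran with depth at a rho of 0.19 and 0.66. The collagen share ran with that of matrix glycoproteins at 0.72 and 0.62. All barcodes of a library share that library and its shares have 1 denominator, so these values are descriptions. The collagen share also chose the members, so nothing is read from its run with the matrix glycoproteins.

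Mesenchymal and contractile genes had a wide range over the members. *Vim*, vimentin, stood at 3818 and 1929.7 CPM, *S100a6*, a calcium-binding protein, at 3059 and 3737 CPM, and the homeobox gene *Prrx1*, which marks limb and skeletal mesenchyme, at 457 and 332 CPM. Of 2 mesenchymal genes whose call was open, *Vim* was 4-fold or more higher and *Tcf4* was 2.04-fold and 2.47-fold higher. Of 7 contractile and adhesion genes whose call was open, 3 were 4-fold or more higher (*Cald1*, *Itgb1* and *Myh9*), beside 3.52% of all such genes. *Acta2*, smooth muscle actin, a mark of activated fibroblasts, stood at 1302 (1197 to 1415) CPM in wild-type and 306 (213 to 425) CPM in knockout feeder barcodes. It was found in 26 of 44 and 7 of 22 of them. The tropomyosin *Tpm1* stood at 571 and 428 CPM.

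Among secreted growth factors, *Lif*, the cytokine that ES cell medium also supplies, stood at 256 (211 to 309) CPM in wild-type and 515 (392 to 665) CPM in knockout feeder barcodes, against 4.10 and 11.7 CPM in the others. It was found in 32 of 44 and 12 of 22 members. *Inhba*, an activin subunit, stood at 482 and 323 CPM and *Grem1*, a BMP antagonist, at 189 and 183 CPM, with 32.1% and 47.6% of the *Grem1* UMIs in 1 barcode. *Igf2*, the fetal insulin-like growth factor, stood at 794 (712 to 883) and 1423 (1213 to 1659) CPM and the imprinted RNA *H19*, its neighbour, at 608 (536 to 686) and 821 (663 to 1004) CPM. Both were concentrated: *H19* was found in 18 of 44 and 9 of 22 members, and a single knockout barcode held 57.1% of that library's *Igf2* and 64.9% of its *H19* feeder UMIs. Without that barcode, knockout *Igf2* stood at 676 (527 to 854) CPM and *H19* at 319 (219 to 447) CPM. Of 2 growth factors whose call was open, 0 were 4-fold or more higher, and of 5 imprinted genes, 1 was, *Gnas*.

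*Cdkn1a* and *Cdkn2b*, which arrest the cell cycle, were high. *Cdkn1a*, the p53-induced inhibitor p21, stood at 2912 (2753 to 3078) and 1799 (1561 to 2062) CPM, 12.8-fold and 8.44-fold above the other barcodes. *Cdkn2b*, the inhibitor p15, stood at 142 and 87.3 CPM against 0.892 and 2.93 CPM. Of the other 5 listed inhibitors, *Cdkn2d* had 3 UMIs in wild-type and 0 in knockout feeder barcodes, against 31.5 and 36.6 CPM in the others. Of 7 p53 targets compared, all with an open call, 3 were 4-fold or more higher in both libraries (*Btg2* at 33.3-fold and 17.4-fold). *Mdm2* was 4.96-fold higher among wild-type and 2.73-fold higher among knockout barcodes. The proliferation list summed to 549.8 (482 to 625) and 1135 (948 to 1348) CPM in the feeder barcodes and 5778 and 5226 CPM in the others. The deepest knockout member held 77 of the 130 knockout UMIs of the list, and without it the knockout level was 577 (432 to 755) CPM. Of 10 members that passed the filter, 9 were at 40 CPM or less in the feeders of at least 1 library, so the count of lower members is no result. *Top2a*, a topoisomerase of dividing cells, stood at 39.6 and 105 CPM, and 1 knockout barcode held 41.7% of its UMIs. At the same time *Ccnd1* and *Ccnd2*, which encode D-type cyclins, were high. *Ccnd1* stood at 1949.9 and 689.8 CPM against 181 and 122 CPM. *Ccnd2* stood at 2949 (2789 to 3116) and 1956 (1708 to 2229.5) CPM against 31.7 and 42.7 CPM.

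Among antigen-presentation genes, *B2m*, *H2-K1* and *H2-D1* passed the filter, by being high in the feeders. *B2m*, the invariant chain of MHC class I, stood at 1293 and 864 CPM against 9.37 and 13.0 CPM, and *H2-K1* at 687 and 463 CPM against 10.4 and 17.5 CPM. Reads of *H2-K1* and *H2-D1* may be shared between near-identical genes. The interferon-induced *Isg15* stood at 193 and 314 CPM against 1.43 and 6.61 CPM. Of 2 members whose call was open, *Ifitm2* and *Ifitm3*, 0 were 4-fold or more higher in both libraries. Of 81 ribosomal protein genes, all compared, 1 was 4-fold or more higher, *Rps2*, at 2749 and 3676 CPM against 380.2 and 475 CPM. Its reads can be split with processed copies, so this value is uncertain.

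The remaining lists held few genes that passed the filter. Of 2 targets of the MEK-ERK pathway whose call was open, *Fos* was 4-fold or more higher, and *Ier3* stood at 443 and 594 CPM against 8.74 and 13.2 CPM. The laminin chain *Lamb1* stood at 196 and 209.6 CPM, and *Lamc1* was 1.13-fold and 0.898-fold of its level in the other barcodes. *Igf2r*, the receptor that clears IGF2, stood 10.2-fold and 11.6-fold above the other barcodes, but its call was fixed by the filter. The 1 gene of its list with an open call was not 4-fold or more higher in both libraries. Of 5 genes regulated by let-7, the microRNA family that LIN28A holds back, 4 had an open call and 0 of these were 4-fold or more higher. The remaining gene was *Ccnd2*, whose levels are given above. Its call was fixed in 1 library, and it was 4-fold or more higher in both. *Trim71* was 0.108-fold and 0.332-fold of its level in the other barcodes. Of 6 metallothionein and redox genes, 1 was higher, the ferritin light chain gene *Ftl1* at 6.74-fold and 4.74-fold.

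Some markers of other cell types were at 0 in the feeder barcodes and others were not. Those not at 0, over both libraries, included *Csf1r* (17 UMIs), *Krt19* (7), *Cdh1* (5), *Sox9* (14), *Runx2* (19) and *Lpl* (19). The share of all genes at 0 in the feeders is not given, so counts at 0 are descriptions. Of 10 endothelial genes, 7 had 0 UMIs in the feeder barcodes, *Cdh5* and *Tek* among them, and *Pecam1* stood at 62.9 and 87.3 CPM, near its 71.8 and 113 CPM in the other barcodes. Macrophage genes summed to 39.6 and 52.4 CPM against 24.6 and 37.2 CPM, and muscle genes to 34.9 and 8.73 CPM against 253 and 327 CPM, with *Myod1* and *Myog* at 0. Epithelial genes summed to 21.0 and 43.7 CPM, with *Krt8* and *Krt18* at 0, against 203 and 198 CPM in the others. Neural genes summed to 109 and 87.3 CPM against 38.1 and 55.3 CPM, with *Tubb3*, a neuronal tubulin, at 83.9 and 17.5 CPM and *Dcx* and *Sox10* at 0. Cartilage, bone and fat genes summed to 123 and 96.0 CPM against 169 and 187 CPM. The primitive endoderm list summed to 8657 and 7701 CPM, of which *Sparc*, shared with fibroblasts, made up 8170 and 7309 CPM, and 6 of its 17 genes were at 0. Complement genes, of which 7 of 9 had a UMI, summed to 90.9 and 166 CPM, 9.79 (6.60 to 14.3)-fold and 21.9 (12.4 to 36.7)-fold of the other barcodes. Hox genes, which mark position along the body axis, had UMIs for 29 of 38 and summed to 447 and 288 CPM against 93.4 and 103 CPM, with *Hoxc6* the highest at 83.9 and 34.9 CPM.

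ES cell transcripts were low and sat in few members. *Pou5f1*, which encodes OCT4, had 17 UMIs in wild-type and 19 in knockout feeder barcodes, or 39.6 (23.1 to 63.4) and 166 (99.9 to 259) CPM, against 869 and 1025 CPM in the others. Of 11 ES cell genes that passed the filter, 8 were at 40 CPM or less in the feeders of at least 1 library, which fixed their call there. Of the 3 whose call was open, *Dppa5a* was 4-fold or more lower, and 1 wild-type barcode held 25 of its 40 wild-type feeder UMIs. *Klf4*, also used by fibroblasts, was 1.30-fold and 0.884-fold of its level in the other barcodes. At least 0.1% of UMIs on *Pou5f1*, *Dppa5a*, *Sox2* and *Tdgf1* together was found in 3 wild-type and 3 knockout members, which can hold an ES cell besides the fibroblast, while 31 of 44 and 14 of 22 members had no UMI on these genes. The 6 held 13 of the 17 and 17 of the 19 *Pou5f1* UMIs, and 6.91% and 21.3% of the feeder UMIs, and 3 of them had under 1000 UMIs, where a single UMI passes the limit. The largest was the deepest knockout member, with 22723 UMIs, 19.8% of that library's feeder UMIs and 16 *Pou5f1* UMIs. A wild-type member of 8122 UMIs, 1 of the 6, had 0.653% of UMIs on the ES cell list and 0.160% on the mesenchymal list. A knockout member of 3312 UMIs, at 0.0906% on the 4 genes and so not counted, had 0.634% and 0.121%. Medians of members with at least 2000 UMIs were 0.102% and 1.05% in wild-type and 0.110% and 0.675% in knockout. Whether these 2 barcodes hold a fibroblast was not tested.

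*Xist*, the RNA that silences 1 X chromosome in female cells, was far higher in the feeders. It stood at 571 (502 to 647) CPM in wild-type and 550.1 (423 to 704) CPM in knockout feeder barcodes, against 28.0 and 31.8 CPM in the others. At least 5 *Xist* UMIs were found in 19 of 44 and 3 of 22 feeder barcodes, and in 0 of 1812 and 1 of 1600 other barcodes. The exception was the deep barcode just under the collagen limit, which had 8. Transcripts of 4 Y-linked genes were found without *Xist* in 8 and 1 feeder barcodes, *Xist* without them in 21 and 9, both in 6 and 2, and neither in 9 and 10. Y-linked transcripts were also found in 36.9% of the other wild-type and 9.56% of the other knockout barcodes, and in the feeders they rest on 20 and 4 UMIs. Whether those UMIs came from the feeder cells was not tested.

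The members differed in their RNA make-up, and the mix differed between the libraries. These groups were drawn after the values were seen. A mitochondrial share of at least 5% marked 3 of 44 wild-type (6.82%, 1.43 to 18.7) and 9 of 22 knockout members (40.9%, 20.7 to 63.6). A ribosomal protein share of at least 12% marked 4 of 44 wild-type (9.09%, 2.53 to 21.7) and 7 of 22 knockout members (31.8%, 13.9 to 54.9). No member had both. The 9 knockout members rich in mitochondrial RNA had 704 to 2274 UMIs and a ribosomal protein share of 1.10% to 2.98%. The 7 rich in ribosomal protein RNA had 2295 to 9184 UMIs and a mitochondrial share of 0.272% to 0.575%. The remaining 6 knockout and 37 wild-type members lay under both limits by construction, so their nearness in these shares is no result. Their medians were 1.82% mitochondrial and 6.58% ribosomal protein UMIs in knockout and 1.35% and 7.43% in wild-type members. The 6 had 666 to 22723 UMIs and a ribosomal protein share of 2.55% to 10.5%. The other barcodes leaned the same way: 2.26% (wild-type) and 11.8% (knockout) of them had a mitochondrial share of at least 5%, and 23.6% and 41.2% a ribosomal protein share of at least 12%.

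**Figure D3:**
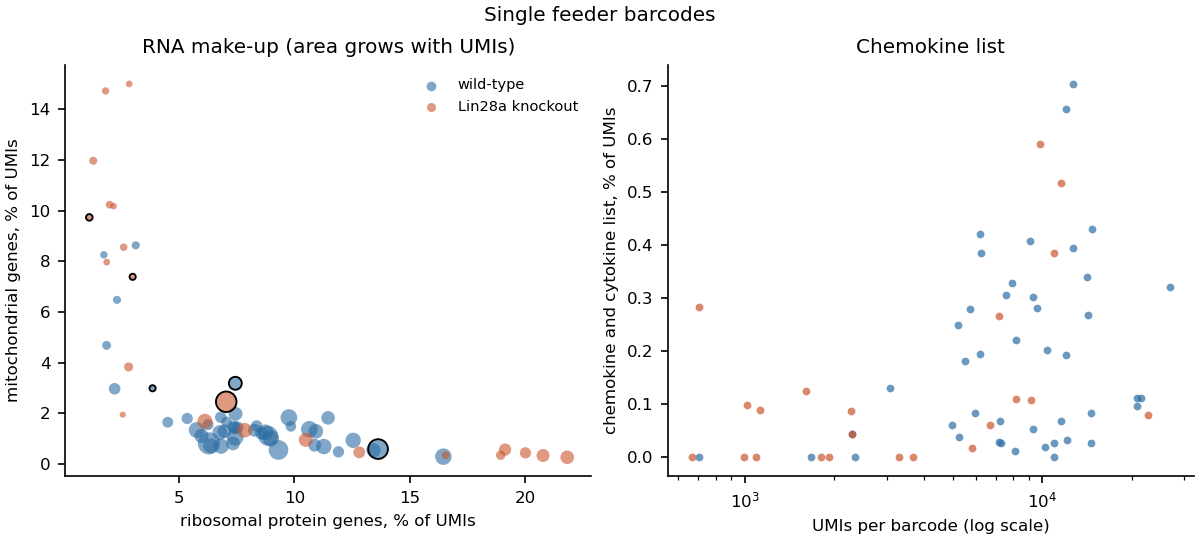
Each point is a feeder barcode of the wild-type (blue) or knockout (orange) library. Left, its percentage of UMIs on mitochondrial against ribosomal protein genes, with area growing with UMIs and black rims on the 6 members with at least 0.1% of UMIs on the 4 ES cell genes. Right, its percentage on the chemokine list against UMIs (log scale). The members with the highest mitochondrial shares lie at the upper left of the first panel, and the highest chemokine shares are in members with over 5000 UMIs.

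Some gene levels differed between these kinds of barcodes. *Malat1*, a nuclear RNA, stood at 48036 CPM in the 9 mitochondria-rich and 2329 CPM in the 7 ribosome-rich knockout members, and at 7675 CPM in the other 6. In the wild-type library it stood at 96611, 15745 and 23960.1 CPM in the same 3 kinds, so the order was shared. *Col1a1* stood at 18960 (16627 to 21528), 9058 (8180 to 10004) and 14502 (13547 to 15507) CPM in the 3 kinds of knockout members and at 19005 (15757 to 22726), 8883 (8128 to 9688) and 13006 (12639 to 13381) CPM in the wild-type ones. It is a gene of the rule, whose minimum of 5 collagen UMIs asks for a higher share in shallow barcodes, and the mitochondria-rich members are shallow, so nothing is read from this order. *Timp3* stood at 558 (224 to 1149) CPM in the mitochondria-rich, 489 (303 to 747) CPM in the ribosome-rich and 1474 (1181 to 1818) CPM in the remaining knockout members, and at 2692 (1568 to 4311), 1707 (1386 to 2080.1) and 3461 (3273 to 3657) CPM in the wild-type ones. Without 1 barcode the ribosome-rich knockout level was 295 (153 to 516) CPM. *Ccl2* stood at 116 (37.8 to 272) CPM in the ribosome-rich and 762 (556 to 1020.1) CPM in the remaining knockout members, and at 941 (707 to 1227) and 402 (340 to 473) CPM in the wild-type ones. A single ribosome-rich wild-type barcode held 36 of 54 *Ccl2* UMIs there, and without it the level was 397 (235 to 627) CPM, close to that of the remaining members. In the knockout library 1 barcode held 4 of the 5 ribosome-rich and another 23 of the 45 remaining *Ccl2* UMIs, and without them the levels were 27.9 and 464 CPM. The metallothionein *Mt1* stood at 2259 (1832 to 2755) and 424 (274 to 625) CPM in the knockout and 418 (268 to 622) and 665 (584 to 754) CPM in the wild-type members. The amino acid transporter gene *Slc3a2* stood at 1141 (844 to 1508) and 237 (130 to 398) CPM in the knockout members. A single ribosome-rich barcode of 6650 UMIs held 38 of its 49 UMIs there, and without it the level was 303 (151 to 542) CPM. The same barcode held 49 *Mt1* UMIs, and without it *Mt1* stood at 1322 CPM in the ribosome-rich knockout members. A wild-type barcode held 20 of the 24 ribosome-rich *Mt1* UMIs, and without it *Mt1* stood at 109 CPM there. In the wild-type library *Slc3a2* stood at 226 (121 to 387) and 181 (139.6 to 229.7) CPM. Few barcodes stand behind each value, and a batch of feeders, a library and the ES cell genotype cannot be told apart here.

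Between the libraries, 2039 genes with at least 50 UMIs over all feeder barcodes were compared. In the knockout feeder barcodes, 60 (2.94%) were 2-fold or more higher and 194 (9.51%) 2-fold or more lower, and the median log2 ratio was -0.04. The wild-type feeders had 429254 UMIs and the knockout feeders 114524, so many of the smaller levels rest on few knockout UMIs. A gene with few UMIs in either group could reach 50 UMIs only by being 2-fold or more higher in the other. Such a call was fixed by the filter, and fixed and open calls were not counted apart here. The shares of 2.94% and 9.51%, and the list counts set beside them below, are therefore descriptions. When each barcode counted the same, 109 and 382 genes passed.

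*Timp3* was the marker that differed most, at 0.312 (0.256 to 0.378) of its wild-type level, while its ratio in the other barcodes was 0.843. Its UMIs were concentrated: the 5 richest barcodes held 59.4% of them in the wild-type library, on 22.3% of the UMIs, and 78.3% in the knockout library, on 50.1%. *Timp2* stood at 0.469 (0.404 to 0.542) of its wild-type level. Beside 9.51% of all genes lower and 2.94% higher, of 15 matrix protease and inhibitor genes compared, 5 were 2-fold or more lower, *Timp3* and *Timp2* among them, and 1 was higher, *Serpinf1*, at 2.36 (1.54 to 3.58). Of 16 contractile genes, 5 were lower and 0 higher, with *Acta2* at 0.235 (0.162 to 0.330) and *Tagln*, transgelin, at 0.379 (0.243 to 0.569). A single wild-type barcode held 145 of the 559 wild-type *Acta2* UMIs. Without the richest barcode of each library, *Acta2* stood at 1029 (932 to 1133) CPM in wild-type and 239 (155 to 352) CPM in knockout. Of 17 matrix glycoproteins, 5 were lower and 0 higher. These were *Postn*, periostin, at 0.199 (0.0784 to 0.421), *Dcn*, decorin, at 0.215 (0.0847 to 0.457), *Fbn1*, fibrillin 1, at 0.307 (0.164 to 0.529), *Efemp1* and *Tnc*, tenascin C, on 7, 7, 14, 8 and 19 knockout UMIs. Of 12 genes that process collagen, 2 were higher, *Pcolce* at 2.40 (1.39 to 4.07) and *P4ha3* at 2.50 (1.34 to 4.55), and 1 was lower, *Loxl2* at 0.476 (0.336 to 0.657), a share of lower genes close to that of all genes. With 50 feeder UMIs in all, *P4ha3* just reached the filter, and its call as higher was fixed by it. The immediate early gene *Egr1* stood at 0.274 (0.184 to 0.395) and *Ccnd1* at 0.354 (0.277 to 0.446). The rule collagens, on whose share the members of both libraries were chosen, are given as a description. *Col1a1* stood at 1.03 (0.974 to 1.09), *Col1a2* at 0.738 (0.659 to 0.824) and *Col3a1* at 1.20 (1.01 to 1.42) of the wild-type level. A knockout barcode of 10920 UMIs held 83 of the 181 knockout *Col3a1* UMIs. Without it *Col3a1* stood at 946 (768 to 1153) CPM, below the 1319 CPM of the wild-type feeder barcodes. *Ccl2* stood at 0.951 (0.685 to 1.30) and *Ccl7* at 0.931 (0.638 to 1.33), both with intervals that include 1. Both ratios lean on 1 knockout barcode of 11589 UMIs. Without it the knockout levels were 272 (181 to 393) and 214 (134 to 324) CPM, against 468 and 366 CPM in wild-type.

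*Lif* was higher, at 2.01 (1.44 to 2.78) times the wild-type feeder level, and *Nfkb1* at 2.42 (1.72 to 3.38). The transcript of *Lif* was also 2.85 times as high in the other barcodes, at 11.7 against 4.10 CPM. *Col6a1* was 1.91 (1.38 to 2.61) times as high. A knockout barcode of 11589 UMIs held 22 of its 61 knockout feeder UMIs. Without that barcode *Col6a1* stood at 379 (269 to 518) CPM, against 279.6 CPM in the wild-type feeder barcodes. *Igf2* was 1.79 (1.48 to 2.17) times as high, and 0.851 (0.648 to 1.10) times without its richest knockout barcode. *Lox* stood at 0.713 (0.541 to 0.929) and *Thbs1* at 0.790 (0.619 to 0.999), and at 0.173 (0.0910 to 0.299) and 0.275 (0.174 to 0.415) without theirs. The 9 mitochondria-rich members, with 12553 of the 114524 knockout feeder UMIs, held 29 of the 60 *Nfkb1* UMIs.

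The 10 genes with the largest ratio included 3 histone H2A genes. *Hist1h2ad* stood at 6.05 (3.63 to 10.3), *Hist1h2ab* at 5.53 (3.08 to 10.1) and *Hist1h2ap* at 4.87 (3.16 to 7.55) times the wild-type feeder level. A single knockout barcode, the deepest, held 90.5%, 90.3% and 78.8% of their UMIs, and all 3 were high in the other barcodes, at 1371 CPM or more in the knockout library. Without that barcode the log2 ratio of *Hist1h2ad* was -0.33 and that of *Hist1h2ab* -0.39, while that of *Hist1h2ap* was 0.41. The mitochondrial genes *mt-Atp6* and *mt-Co2* stood at 3.35 (2.88 to 3.88) and 2.83 (2.54 to 3.15), and at 2.05 and 2.29 in the other barcodes. In members of at least 5000 UMIs the log2 ratio of *mt-Co2* was 0.30. In the mitochondria-rich, ribosome-rich and remaining knockout members, *mt-Atp6* stood at 11631, 582 and 2880 CPM. In the wild-type ones it stood at 3326, 244 and 949 CPM. For *mt-Co2* these levels were 30112, 1048 and 2914 CPM in knockout and 11562, 1254 and 1762 CPM in wild-type. The first kind was chosen on its mitochondrial share. *Slc3a2* stood at 3.15 (2.25 to 4.40), against 1.20 in the other barcodes, and at 1.47 (0.936 to 2.27) without the barcode that held 55.9% of its knockout feeder UMIs. *Slc2a3*, a glucose transporter gene, stood at 3.63 (2.16 to 6.10). The remaining 3, *Gm13341*, *Gm7331* and *Gm10925*, are annotated as pseudogenes, whose reads may come from copies elsewhere.

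Several other levels leaned on 1 member, and fell by a factor over 1.5 without the member richest in the gene. In the knockout library this held for *Ccl2* (to 272 CPM), *Ccl7* (to 214 CPM), *Cxcl5* (to 146 CPM) and *Col5a2* (to 165 CPM), all richest in the same barcode of 11589 UMIs. It also held for *Col3a1* (to 946 CPM), *Vcan* (to 174 CPM), *Cyp1b1* (to 145 CPM), *Grem1* (to 106 CPM) and *Gm49394* (to 956 CPM), richest like *Igf2* and *H19* in a barcode of 10920 UMIs. *Timp1* fell to 399 CPM and *Mdm2* to 174 CPM without theirs. In the wild-type library *Dcn* fell to 186 CPM and *Postn* to 191 CPM without the deepest member.

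The 10 genes with the smallest ratio had 0 to 4 UMIs in the knockout feeder barcodes. With so few knockout UMIs, a gene passed the filter only by being 2-fold or more higher in the wild-type feeders. The calls of all 10 as lower were thus fixed by the filter, and their ranking is a description. *Uso1*, a vesicle tethering factor of the Golgi, had 51 wild-type UMIs and 0 knockout UMIs, which makes it at least 4.54-fold lower at a floor of 3 UMIs over the group. *Cavin2*, a coat protein of caveolae, stood at 0.120 (0.0322 to 0.315) and *Dkk3*, a secreted Dickkopf family member, at 0.144 (0.0170 to 0.548). *Wnt5a*, a Wnt ligand of mesenchyme, stood at 0.156 (0.0184 to 0.596) on 48 and 2 UMIs. The other 6 were *Heg1*, *Zcchc17*, *Zbed6*, *Lpgat1*, *Zfp516* and *Enc1*. In the other barcodes, *Cavin2* had 2 and 0 UMIs and *Dkk3* 14 and 5, and the remaining 8 stood at 0.474 to 1.56 times the wild-type level.

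**Figure D4:**
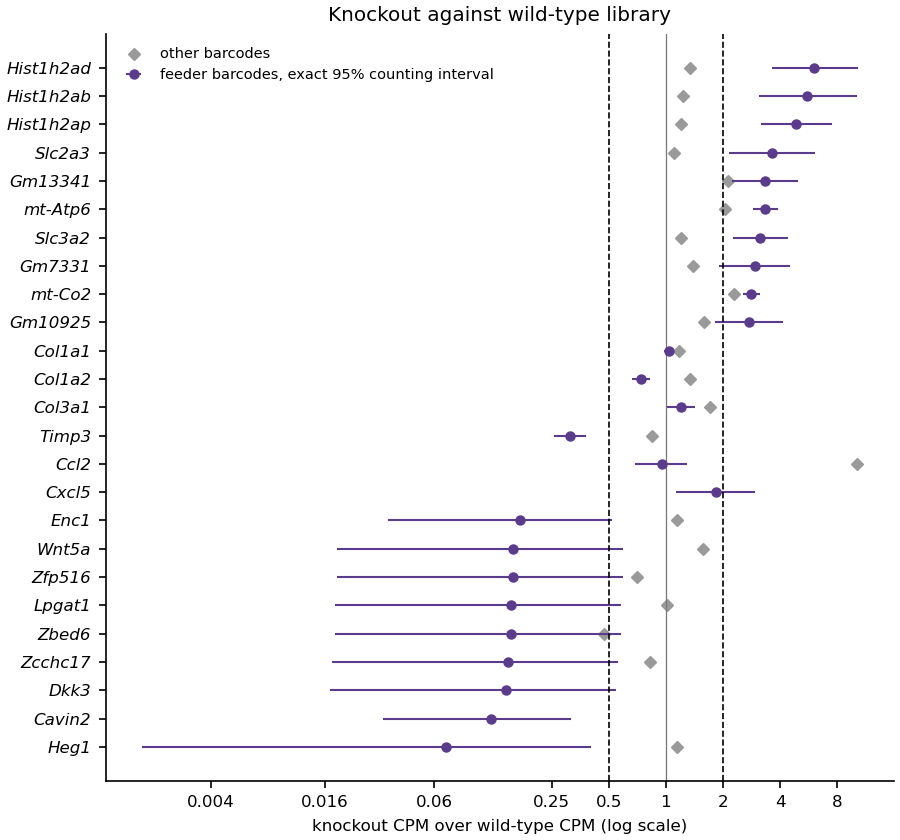
Knockout over wild-type CPM (log scale) in the feeder barcodes, with exact 95% counting intervals (purple), and in the other barcodes (grey diamonds, where at least 20 UMIs were found), for the 10 largest ratios, the 6 markers and 9 of the 10 smallest ratios. Dashed lines mark 2-fold. The other-barcode value of Ccl2 rests on 25 knockout UMIs, 22 of them in 1 barcode. Uso1, with 0 knockout UMIs, is left out, and the intervals of the smallest ratios are the widest.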

How the data were processed

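Cells of 2 cultures were encapsulated by inDrop, and each library was deposited as a table of UMI counts per barcode and Ensembl gene ID. The deposited counts were made by the authors with the inDrop pipeline and are not normalized. The submitters' notes name mm10, and the aligner and annotation are not given in the sources used here. The authors analysed them in Seurat 2.3.4. The libraries held 4329 and 6060 barcodes with 12079546 and 10027710 UMIs. Of 54146 gene IDs, 54079 were named with GENCODE M21 (GRCm38). Barcodes are numbered within each file, so shared barcodes could not be counted.

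UMIs were summed over the barcodes of a kind and scaled to CPM with pandas 2.3.3 in Python 3.11.15. Poisson, binomial and conditional binomial intervals (95%, exact, scipy 1.17.1) cover counting error only. A count of 0 was set to a floor of 3 UMIs over the group for a fold, and 0.5 UMI was added for ranks. Genes were compared at a mean of 100 CPM of feeder and other barcodes in each library, or, between libraries, at 50 UMIs over all feeder barcodes. Scripts were tested on simulated data. With 1 library per group no test was made. Doublets were not removed beforehand. Scrublet (scanpy 1.11.5), used as an alternative, marked 27 wild-type barcodes (1.45%) and 18 knockout barcodes (1.11%), among them 1 feeder.

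The members and gene lists were chosen with earlier results of these data known. Named genes were the 6 markers, up to 6 members of each list with the highest feeder level, members at 0 or marking another cell type, the 20 largest feeder ratios, the 10 largest and 10 smallest ratios between libraries, the 5 highest feeder levels, *Lin28a* and *Lin28b*. Genes given as the exceptions or examples within a list count and the genes of the barcode just under the limit were added after their values were seen. A gene that met this rule is not reported here. Promoter sequences are from RefSeq (GRCm38.p6).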

Additional observations from a re-analysis of the deposited data

Results flagged for a closer look

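The ratio of feeder over other barcodes lay on opposite sides of 1 in the 2 libraries for 2 of the named genes, with counting intervals that left out 1 in both, and the difference was not tested. *Mt1*, a metallothionein, stood at 0.667 among wild-type and 1.53 among knockout barcodes. *Slc3a2*, the heavy chain of an amino acid transporter, stood at 0.796 among wild-type and 2.08 among knockout barcodes. Both knockout ratios rest on 1 ribosome-rich barcode of 6650 UMIs, which held 49 of the 124 *Mt1* and 38 of the 68 *Slc3a2* feeder UMIs. Without it the ratios were 0.983 (0.772 to 1.23) for *Mt1* and 0.974 (0.656 to 1.39) for *Slc3a2*.

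Some barcodes left out for depth also met the collagen rule. Of 2472 wild-type barcodes under 500 UMIs, 5 did (0.202%, 0.0657 to 0.471), and of 4423 knockout barcodes, 13 did (0.294%, 0.157 to 0.502). They had 174 to 402 UMIs among wild-type and 171 to 425 UMIs among knockout barcodes. Over the mitochondrial limit, 1 of 1 wild-type and 3 of 15 knockout barcodes did.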

How the results depend on the processing

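No paired analysis was possible because each group is 1 library. Of the counts, shares and list values over all alternatives, 241 stayed within the limits set for them and 14 moved. Of the values of single named genes, 616 stayed, 81 moved and 3 changed direction. The moves were concentrated: of 22 named log2 ratios of feeder over other barcodes, 19 moved at a collagen limit of 1%, where the lowest was 4.40 (*Lox*), and 16 with equal weight per barcode, where the lowest was 5.71 (*H19*). None of the 22 changed direction under either, but this is no check of them. They were the markers, the rule collagens among them, and the genes with the largest ratios in these same data. A change of direction was therefore hardly possible.

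The wild-type share was 1.67% at a collagen limit of 1%. The knockout over wild-type share ratio ran from 0.356 to 0.729, and its interval took in 1 at collagen limits of 0.2% and 1%, at minima of 1000 and 200 UMIs and with no mitochondrial limit. With no filter on low counts, 7351 genes were 4-fold or more higher in the feeders, and 4959 and 2191 were 2-fold or more higher and lower in the knockout feeders. At 50 CPM and 20 UMIs these were 324, 350 and 639. Looser filters admit genes of few UMIs by construction. With equal weight per barcode, 109 genes were higher, of which 32 were among the 60, and 382 lower, of which 143 were among the 194. Without the 6 members at 0.1% or more on the 4 ES cell genes, 96 were higher (36 of the 60) and *Hist1h2ab* stood at a log2 ratio of -0.17. Without the deepest knockout member, chosen after seeing the data, *Hist1h2ad* stood at -0.33 and *Hist1h2ab* at -0.39. That member held most of their UMIs. Of the 10 proliferation genes, 5 were 4-fold or more lower, a count largely fixed by the filter on levels. This count was 8 at a collagen limit of 1%, 8 without those 6 members, 9 without the deepest knockout member and 2 on a median-of-ratios scale. For the other changes the cause was not tested. *Timp3* stayed at least 2-fold lower in the knockout feeders under every alternative run. The smaller number of knockout feeder UMIs limits what could be seen of low genes there.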
